A study of Mus musculus with 9 samples.

Results

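The 5 mouse Fc gamma receptor genes Fcgr1, Fcgr2b, Fcgr3, Fcgr4 and Fcgrt were followed through the 9 whole-tumor libraries of the series. They were taken by symbol from a table of 54429 gene symbols, and all 5 were among the 15931 genes with enough counts to be tested. The tumors grew under the skin of wild-type C57BL/6 mice from NB9464, a neuroblastoma line of the mouse in which MYCN is amplified, and mice were randomized at a tumor volume of 250 mm3. Tumors received Vehicle, R788 + anti-PDL1, or Rad + R788 + anti-PDL1, with 3 tumors in each group. R788 (fostamatinib, a prodrug inhibitor of the kinase Syk) was given at 50 mg/kg 5 times a week. Anti-PDL1, an antibody against a checkpoint ligand, was labelled as given 4 times a week, while the series text lists treatment on days 28, 31, 34 and 37. Rad stands for a dose of 10 Gy, and the tumors of that group are called irradiated below. The mice were 4 to 6 weeks old at implantation, every tumor came from a single line, and neither R788, anti-PDL1 nor radiation alone was analysed here. Nothing in the labels says whether the 3 tumors of a group were treated together, so p-values measure only the spread between these samples.

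Fc gamma receptors bind the constant part of IgG and, Fcgrt apart, are carried mainly by macrophages, monocytes, neutrophils and other leukocytes rather than by tumor cells. Fcgr1, Fcgr3 and Fcgr4 are activating receptors that signal through the shared gamma chain Fcer1g to Src family kinases and Syk. Fcgr2b is the inhibitory receptor and recruits the inositol phosphatase Inpp5d, and Fcgrt encodes the heavy chain of FcRn, which pairs with B2m and carries IgG and albumin through endosomes. Syk, the target of R788, thus stands directly downstream of the activating members.

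Fcgr2b (ENSMUSG00000026656.15, chr1:170958617-170976547, minus strand), Fcgr4 (ENSMUSG00000059089.4, chr1:171018920-171029761, plus strand) and Fcgr3 (ENSMUSG00000059498.13, chr1:171051174-171064935, minus strand) lie together within 106.3 kb of chromosome 1 of GRCm38, the same assembly as the mm10 build of the files. Fcgr1 (ENSMUSG00000015947.10) lies at chr3:96282909-96293969 and Fcgrt (ENSMUSG00000003420.8) at chr7:45092990-45103851, both on the minus strand. All 5 are protein-coding genes in GENCODE M21, and counts were summed over whole genes. Of the 31-base words in Fcgr3 transcripts, 13.4% also occur in Fcgr2b, so reads there could be divided between these neighbours by the quantifier. The share with any other gene was 8.15% for Fcgr2b, 1.88% for Fcgrt, 1.39% for Fcgr4 and 0% for Fcgr1. Fcgr2b and Fcgrt overlap opposite-strand genes, Gm38204 and Gm45669, which held at most 5 and 7 counts in any library, and the strandedness of the libraries was not given in the sources used here.

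The RefSeq promoters of 3 activating receptors are shown because Fcgr4 and Fcgr3, which lie side by side, separated in the tumors while Fcgr1 did not follow Fcgr4. Each line holds the 250 bases before the RefSeq start on GRCm38.p6, and all 5 members had an entry. Capitals mark matches on either strand to TTCNNNGAA (the core of a gamma interferon activation site), to the core of an interferon-stimulated response element (a pair of GAAA words a pair of bases apart) or to GAGGAA (the core of a PU.1 site, read as TTCCTC on the other strand).
Fcgr1 promoter, chr3:96293970-96294219 (- strand): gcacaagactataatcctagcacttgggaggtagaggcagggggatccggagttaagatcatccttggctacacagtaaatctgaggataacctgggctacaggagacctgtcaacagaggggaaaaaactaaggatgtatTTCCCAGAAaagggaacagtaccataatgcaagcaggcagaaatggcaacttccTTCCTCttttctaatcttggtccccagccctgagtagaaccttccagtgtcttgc
Fcgr3 promoter, chr1:171059404-171059653 (- strand): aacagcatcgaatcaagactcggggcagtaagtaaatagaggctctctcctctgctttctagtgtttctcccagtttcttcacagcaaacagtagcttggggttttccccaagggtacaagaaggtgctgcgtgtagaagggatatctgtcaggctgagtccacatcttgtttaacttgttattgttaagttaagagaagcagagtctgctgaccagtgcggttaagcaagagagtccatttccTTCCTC
Fcgr4 promoter, chr1:171018676-171018925 (+ strand): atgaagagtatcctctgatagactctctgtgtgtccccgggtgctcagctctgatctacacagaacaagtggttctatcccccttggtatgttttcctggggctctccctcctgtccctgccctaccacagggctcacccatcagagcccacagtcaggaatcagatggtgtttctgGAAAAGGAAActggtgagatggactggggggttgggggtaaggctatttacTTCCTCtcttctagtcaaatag
All 3 printed promoters held GAGGAA, which 23.1% of 27025 promoters of the same length held. Fcgr1 also held TTCNNNGAA, found in 7.18% of promoters, and Fcgr4 held the response element core, found in 3.04%. Fcgr2b and Fcgrt held none of these letters in their windows. The motifs were chosen after the sequences had been seen, and a match is a description of the letters and not a binding site. The first 27 bases of the Fcgr3 window and the last 6 of the Fcgr4 window fall in annotated first exons of the same gene. The whole Fcgr3 window lies inside the GENCODE gene, whose minus-strand span begins further upstream, at chr1:171064935. That window is thus upstream of the RefSeq start only.

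Libraries totalled between 18276683 and 23397886 counts. The limit that a count of 0 allows, 3 counts, came to 0.115 to 0.221 CPM (counts scaled to a common library size, here after correction by the trimmed mean of M values, TMM), and such limits cover counting error only. The lowest count of any member was 25. Irradiated replicate 1 stood apart from the other libraries over all genes, with Pearson r between 0.865 and 0.907 and a scaling factor of 0.743. Irradiated replicate 3 was rich in macrophage transcripts, with a summed level of the 20 macrophage markers of 2330 CPM against 403 to 886 CPM in the 6 unirradiated libraries and 450 and 712 CPM in the other irradiated tumors. Of these markers, Cd68, Trem2, Mertk and Cd163 were not highest there. They were at 50.7, 12.2, 26.4 and 17.5 CPM, against up to 65.7, 15.9, 29.2 and 20.9 CPM elsewhere. That tumor also stood out for the interferon-induced gene Irf7, at 49.9 CPM against at most 7.22 CPM elsewhere. As a check of the labels, Mycn ranged from 93.3 to 250 CPM and Hand2, a sympathetic lineage factor, from 325 to 867 CPM, but Th, the rate-limiting enzyme of catecholamine synthesis, had no counts in any library. The labels describe whole tumor as the tissue while their extraction text names bone marrow-derived macrophages. They were treated here as whole tumors.

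Fcgr1, the high-affinity IgG receptor, was at 3.81, 2.38 and 3.95 CPM in Vehicle, 4.37, 7.99 and 6.39 CPM in R788 + anti-PDL1, and 1.84, 1.67 and 35.5 CPM in irradiated tumors. All 3 R788 + anti-PDL1 tumors were above all 3 Vehicle tumors, whereas the irradiated group held both the lowest values and the highest one. Fcgr2b, the inhibitory receptor, followed the same order, at 9, 16.2 and 16 CPM in Vehicle, 18, 33.4 and 22.2 CPM in R788 + anti-PDL1 and 8.63, 11 and 130 CPM in irradiated tumors. Here too the R788 + anti-PDL1 and Vehicle values did not overlap, and irradiated replicate 3 alone lay far above the rest.

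Fcgr3, the low-affinity activating receptor, was at 20.4, 12.5 and 15.7 CPM in Vehicle, 24.1, 17.5 and 24.8 CPM in R788 + anti-PDL1, and 13.6, 13.6 and 63.2 CPM in irradiated tumors. All 3 groups overlapped. Fcgr4, an activating receptor of monocytes, macrophages and neutrophils, was at 4.36, 2.92 and 3.18 CPM in Vehicle, 3.70, 2.68 and 3.73 CPM in R788 + anti-PDL1, and 5.38, 4.31 and 22.1 CPM in irradiated tumors. Unlike the other 3 receptors of leukocytes, it was above every R788 + anti-PDL1 tumor in each of the irradiated tumors, and the Vehicle range overlapped both. Fcgrt was at 81.0, 71.5 and 72.5 CPM in Vehicle, 54.2, 77.7 and 58.2 CPM in R788 + anti-PDL1, and 143, 58.5 and 96.0 CPM in irradiated tumors. Its highest value was in irradiated replicate 1 and not in the macrophage-rich replicate 3.

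**Figure D1:**
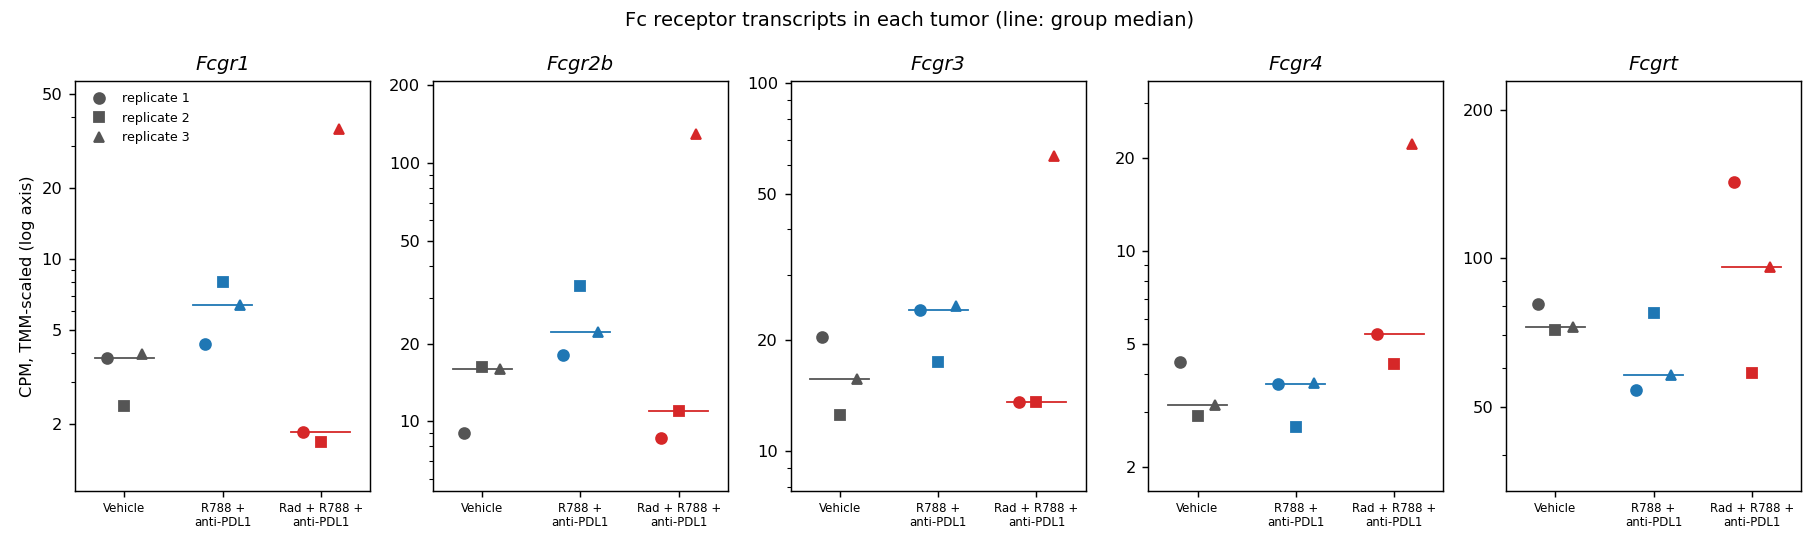
Transcript level of each Fc receptor gene in every tumor, in TMM-scaled CPM on a log axis that differs between panels. Symbols mark replicates 1 to 3 and lines the group medians. Irradiated replicate 3 was highest for Fcgr1, Fcgr2b, Fcgr3 and Fcgr4, at 35.5, 130, 63.2 and 22.1 CPM, while for Fcgrt irradiated replicate 1 was highest at 143 CPM.

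Levels of different members were compared per kb of exon, and only as a description. In Vehicle, Fcgrt was at 35.7 ± 2.48 CPM per kb (SD, n = 3), Fcgr3 at 9.32 ± 2.29, Fcgr4 at 2.78 ± 0.612, Fcgr2b at 2.37 ± 0.709 and Fcgr1 at 1.30 ± 0.335 CPM per kb. The ranges of Fcgr4 and Fcgr2b overlapped, so their order in Vehicle is within the spread, and with the longest annotated transcript as the length it turned around, Fcgr2b being at 3.88 ± 1.16 CPM per kb. In R788 + anti-PDL1 the order was Fcgrt at 30.1 ± 5.98, Fcgr3 at 12.8 ± 2.31, Fcgr2b at 4.24 ± 1.37, Fcgr4 at 2.68 ± 0.479 and Fcgr1 at 2.41 ± 0.701 CPM per kb. The last pair overlapped there, while Fcgr2b lay above Fcgr4 in every tumor. In irradiated replicates 1 and 2, Fcgr4 stood above Fcgr2b, at 4.29 and 3.43 against 1.49 and 1.9 CPM per kb, whereas in replicate 3 Fcgr2b led with 22.5 against 17.6 CPM per kb. Fcgr1 was the lowest member in each irradiated tumor, at 0.712, 0.647 and 13.7 CPM per kb.

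The first comparison asked how tumors given the Syk inhibitor with anti-PDL1 differed from Vehicle tumors. The fold change was 1.85 for Fcgr1 (log2 0.89, SE 1, 95% interval -1.36 to 3.13) and 1.79 for Fcgr2b (log2 0.84, SE 0.88, -1.14 to 2.81). It was 1.37 for Fcgr3 (log2 0.45, SE 0.55), 0.967 for Fcgr4 (log2 -0.05, SE 0.59) and 0.845 for Fcgrt (log2 -0.24, SE 0.30, -0.92 to 0.43). None of the 5 passed edgeR's quasi-likelihood test, with adjusted p from 0.79 to 0.988, against 0.678% of all genes tested. None had p under 0.05 before adjustment (lowest 0.365), against 11.7% of all genes, and DESeq2 called none of the 4 for which it gave an adjusted p (all but Fcgr2b), against 4.83% of all genes. Fcgr1 and Fcgr2b were the 2 of 5 members whose groups did not overlap, both higher, as was the case for 13.6% of all genes tested. The spread that enters these tests is estimated over all 9 libraries, irradiated replicate 3 included.

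The second comparison set irradiated tumors against Vehicle. The fold change was 3.87 for Fcgr1 (log2 1.95, SE 1.02), 3.64 for Fcgr2b (log2 1.86, SE 0.90), 1.87 for Fcgr3 (log2 0.90, SE 0.56), 3.05 for Fcgr4 (log2 1.61, SE 0.59, 95% interval 0.27 to 2.94) and 1.32 for Fcgrt (log2 0.40, SE 0.30). None of the 5 passed edgeR's test, with adjusted p from 0.328 to 0.531, against 0.0439% of all genes, and DESeq2 again called none of 4, against 3.84%. Before adjustment only Fcgr4 was under 0.05, against 13.2% of all genes. No member separated the groups without overlap, which 20.5% of all genes did. Without irradiated replicate 3 the log2 fold change was -0.94 for Fcgr1, -0.49 for Fcgr2b and -0.25 for Fcgr3, so their direction rested on that tumor, while Fcgr4 was at 0.47 and Fcgrt at 0.42. Without irradiated replicate 1, the library that stood apart, Fcgr1 was at 2.51, Fcgr2b at 2.41, Fcgr3 at 1.29, Fcgr4 at 1.96 and Fcgrt at 0.07.

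The third comparison, irradiated tumors against R788 + anti-PDL1, shows the addition of radiation. Fcgr4 had the largest fold change of the members, at 3.15 (log2 1.66, SE 0.59, 95% interval 0.33 to 2.99), beside 2.09 for Fcgr1 (log2 1.06, SE 0.99), 2.04 for Fcgr2b (log2 1.03, SE 0.88), 1.36 for Fcgr3 (log2 0.45, SE 0.55) and 1.56 for Fcgrt (log2 0.65, SE 0.30). None of the 5 passed, with adjusted p from edgeR's test between 0.229 and 0.667, against 0.00628% of all genes, and DESeq2 called none of 4, against 5.16%. Fcgr4 alone was under 0.05 before adjustment, against 18.4% of all genes. It was also the single member whose groups did not overlap, higher in irradiated tumors, against 14.2% of all genes. Without irradiated replicate 3, Fcgr1 was at log2 -1.83, Fcgr2b at -1.32 and Fcgr3 at -0.70, whereas Fcgr4 was at 0.52 and Fcgrt at 0.67. Without irradiated replicate 1 Fcgr4 was at 1.99 and Fcgrt at 0.29. This comparison shares its tumors with the other comparisons, so the 3 sets of values are not independent.

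**Figure D2:**
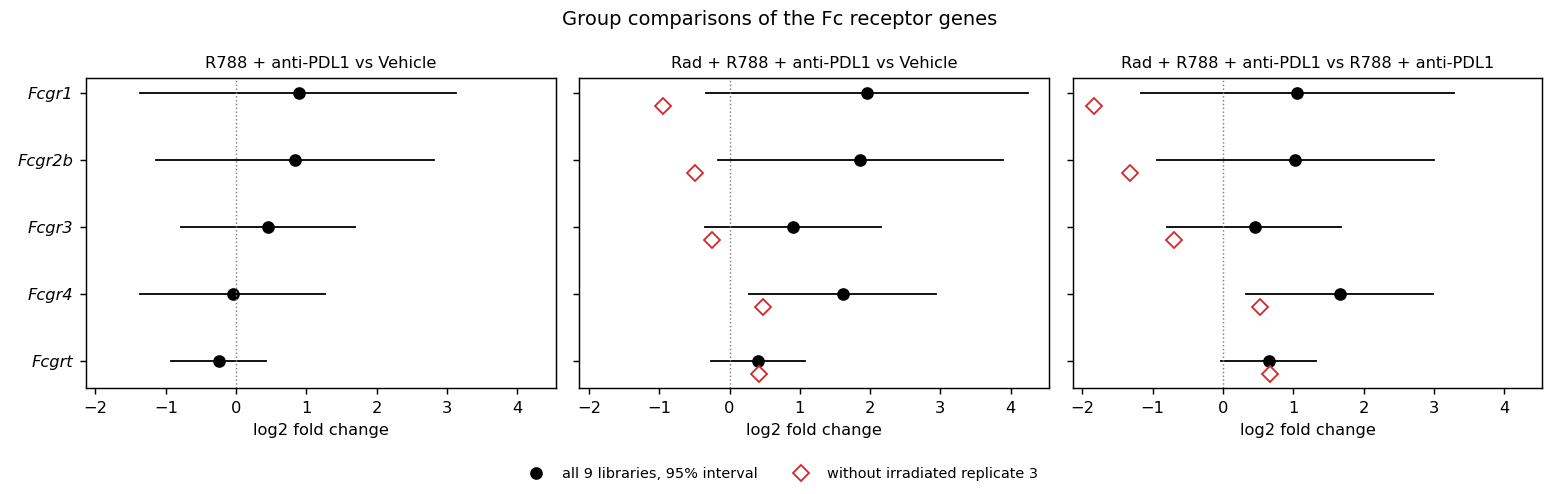
Log2 fold change of each Fc receptor gene in the 3 comparisons. Black points and lines are the fit over all 9 libraries with its 95% interval, and open diamonds the value without irradiated replicate 3. In both comparisons with irradiated tumors the diamonds for Fcgr1, Fcgr2b and Fcgr3 lie below 0 and those for Fcgr4, at 0.47 and 0.52, and Fcgrt, at 0.42 and 0.67, above it.

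The balance between receptors was then taken as the ratio of counts within each library, which does not depend on library scaling. The Fcgr4 to Fcgr3 ratio was 0.214, 0.234 and 0.203 in Vehicle, 0.154, 0.153 and 0.150 in R788 + anti-PDL1, and 0.395, 0.317 and 0.350 in irradiated tumors. Its 3 groups thus lay in separate ranges, lowest in R788 + anti-PDL1 and highest in irradiated tumors, and the macrophage-rich replicate 3 fell between the other two irradiated tumors. The group means were 0.217 ± 0.0157 in Vehicle, 0.152 ± 0.0016 in R788 + anti-PDL1 and 0.354 ± 0.0389 in irradiated tumors (SD, n = 3 each). On the log2 scale of CPM with a prior count of 2 the difference was -0.51 for R788 + anti-PDL1 against Vehicle, 0.69 for irradiated tumors against Vehicle and 1.19 for irradiated tumors against R788 + anti-PDL1, beside pooled SDs of 0.08, 0.13 and 0.11. Without irradiated replicate 1 the latter differences were 0.60 and 1.11.

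Counting error limits these ratios. The R788 + anti-PDL1 tumors lay closer together, at 0.150 to 0.154, than the counting interval of any of them, such as 0.121 to 0.187 in replicate 3. The SD of that group, and pooled SDs that include it, are thus no full measure of the error. The 95% Wilson intervals of the R788 + anti-PDL1 tumors reached up to 0.187 to 0.196 and those of the Vehicle tumors down to 0.153 to 0.179, so single tumors of those groups overlapped in counting error. The irradiated intervals began at 0.249 or above, clear of every R788 + anti-PDL1 interval, but those of Vehicle reached up to 0.269 to 0.306 and so overlapped with part of them. No test was made of a ratio chosen among members, so this stands as a description. As a background, among the 15930 genes other than Fcgr3 the ratio to Fcgr3 separated the groups in the direction seen for Fcgr4 for 28.5% of genes in the first comparison, 1.5% in the second and 0.609% in the third. The full order of Fcgr4, with no overlap between any of the groups, was held by 2 of these genes (0.0126%), Fcgr4 itself included. Fcgr3 was at 63.2 CPM in irradiated replicate 3 against 13.6 CPM in the other irradiated tumors. The ratio therefore fell in that tumor for any gene that did not rise with Fcgr3. The small shares thus do not measure how rare the Fcgr4 order is among genes of the same cells.

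The other 3 ratios overlapped between all groups. Fcgr1 to Fcgr2b was 0.272 ± 0.14 in Vehicle, 0.256 ± 0.0273 in R788 + anti-PDL1 and 0.213 ± 0.0604 in irradiated tumors. Fcgr3 to Fcgr2b ran from 0.77 to 2.26 in Vehicle, from 0.525 to 1.34 in R788 + anti-PDL1 and from 0.485 to 1.58 in irradiated tumors. Fcgr4 to Fcgr2b ran from 0.18 to 0.485, from 0.0801 to 0.205 and from 0.17 to 0.624 in the same order.

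**Figure D3:**
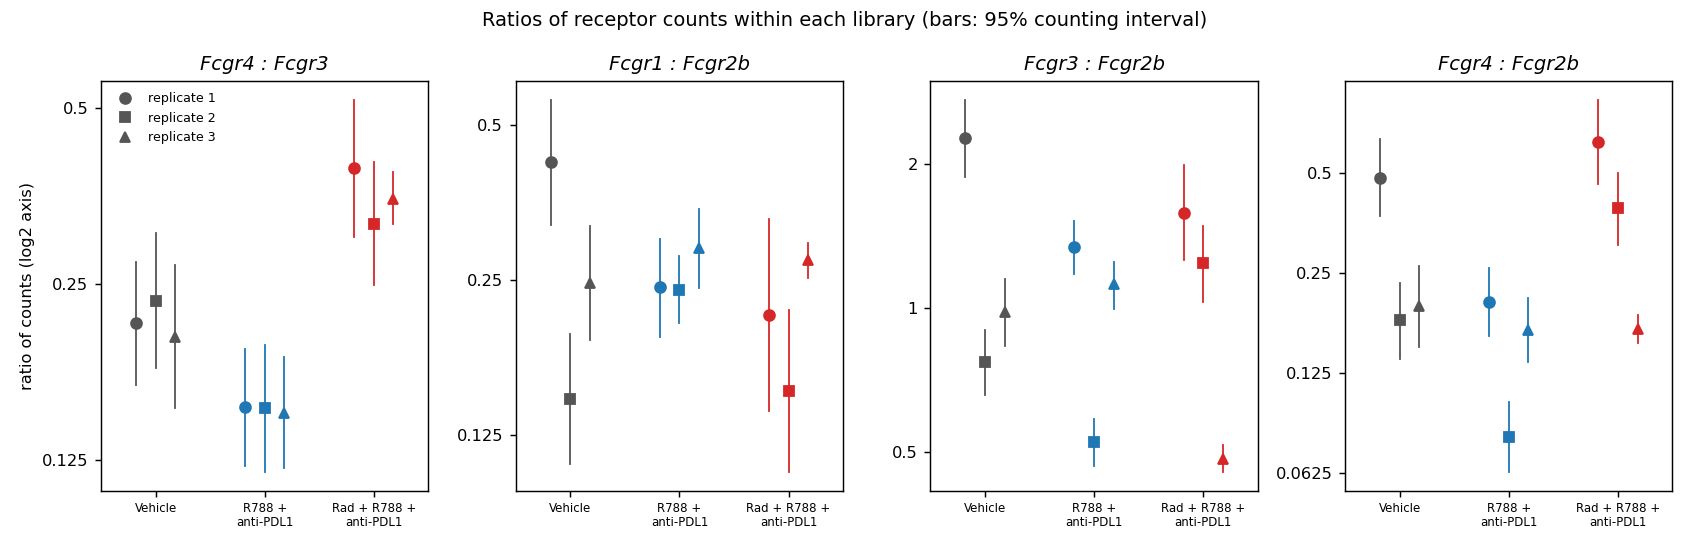
Ratio of receptor counts within each library, on a log2 axis, with 95% Wilson intervals that cover counting error only. For Fcgr4 to Fcgr3 the 3 groups occupy separate ranges, 0.150 to 0.154, 0.203 to 0.234 and 0.317 to 0.395, whereas the other 3 ratios overlap between all groups.

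In whole tumors, fewer cells of a type and less RNA per cell cannot be told apart, so each member was also set against the mean log2 CPM of the 20 macrophage markers. That mean was 4.13, 3.37 and 3.65 in Vehicle, 4.46, 4.53 and 4.57 in R788 + anti-PDL1, and 3.77, 3.57 and 5.92 in irradiated tumors. Relative to it, Fcgr4 stood at -1.97, -1.78 and -1.93 in Vehicle, -2.53, -3.06 and -2.63 in R788 + anti-PDL1, and -1.32, -1.43 and -1.45 in irradiated tumors. The groups again did not overlap, and irradiated replicate 3 fell in with the other irradiated tumors. The Fcgr4 difference was -0.85 for R788 + anti-PDL1 against Vehicle, where 53.1% of all genes were lower without overlap, and 0.50 for irradiated tumors against Vehicle, where 0.835% were higher without overlap. Against R788 + anti-PDL1 it was 1.34 in irradiated tumors, where 0.854% of genes were higher without overlap, and 1.37 without irradiated replicate 3. The marker mean was highest in irradiated replicate 3, so any gene that did not rise with it fell relative to it there. The small shares thus do not measure how rare the Fcgr4 pattern is among genes of the same cells.

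Fcgr3 followed the macrophage markers most closely, lying between -0.39 and 0.33 in all 9 tumors. It was lower without overlap than in Vehicle, by -0.34 in R788 + anti-PDL1 and by -0.19 in irradiated tumors, as 53.1% and 4.16% of all genes were. Fcgr1 lay between -2.82 and -0.76 and Fcgr2b between -0.94 and 1.11, each highest in irradiated replicate 3, and their groups overlapped in every comparison. Relative to the markers Fcgrt was lower without overlap in R788 + anti-PDL1, at 1.30 to 1.75 against 2.21 to 2.79 in Vehicle, as were 53.1% of genes. With the median of the 20 markers in place of the mean, the difference in Fcgr4 was 0.93 in irradiated tumors against Vehicle and 1.65 against R788 + anti-PDL1. Under that choice the Fcgr3 difference in irradiated tumors against Vehicle turned from -0.19 to 0.24.

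**Figure D4:**
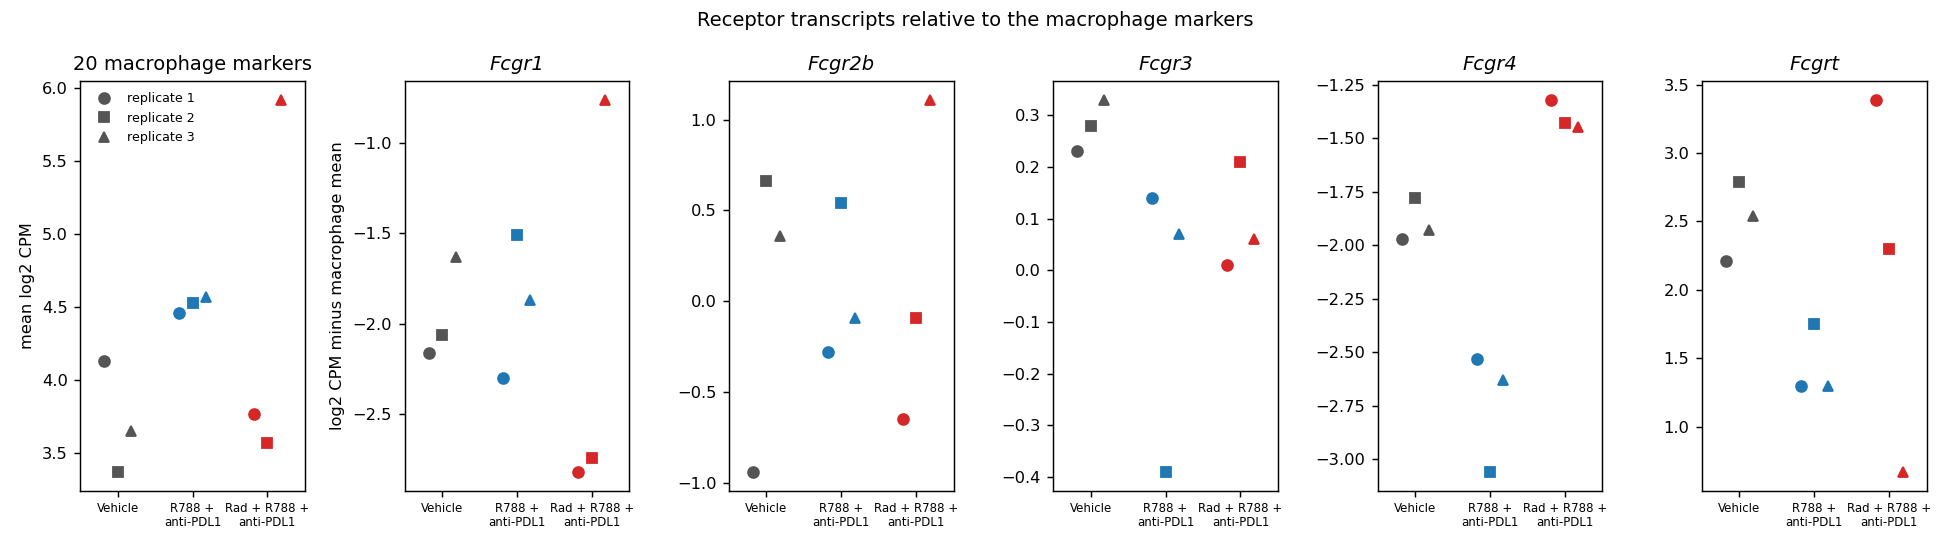
Left panel, mean log2 CPM of the 20 macrophage markers in each tumor, and other panels, log2 CPM of each Fc receptor gene minus that mean. Fcgr4 lies between -1.45 and -1.32 in irradiated tumors, between -1.97 and -1.78 in Vehicle and between -3.06 and -2.53 in R788 + anti-PDL1.

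Cells other than macrophages also carry these receptors, and neutrophils carry both Fcgr3 and Fcgr4. Summed levels of the 12 neutrophil markers were 20.2 to 26.4 CPM in Vehicle, 18 to 82.1 CPM in R788 + anti-PDL1 and 30.1 to 47.6 CPM in irradiated tumors, and Ly6g and Ngp had no counts in any tumor. The protease gene Mmp9 made up most of the highest sums, at 76.2 and 62.7 CPM in R788 + anti-PDL1 replicates 1 and 3, whereas 6 of the 8 markers tested were lower in R788 + anti-PDL1 than in Vehicle (median log2 -1.05), 4 of them without overlap against 16.5% of all genes. S100a8, an abundant neutrophil transcript, was at 0.607, 3.37 and 1.64 CPM in Vehicle, 0.176, 0.344 and 0.164 CPM in R788 + anti-PDL1, and 1.11, 0.558 and 1 CPM in irradiated tumors. Like Fcgr4 relative to Fcgr3 it was lowest in R788 + anti-PDL1, but it was not highest in irradiated tumors. Lcn2, which encodes a granule protein of neutrophils, was at 1.05, 1.62 and 0.329 CPM in Vehicle, 0.0882, 0.191 and 0.164 CPM in R788 + anti-PDL1, and 4.13, 2.59 and 2.51 CPM in irradiated tumors. In R788 + anti-PDL1 its levels were near the limit of detection, at 2, 5 and 4 counts. So were those of S100a8, at 4, 9 and 4 counts. Lcn2 had the same order of groups as Fcgr4 relative to Fcgr3, with no overlap between any of them. The list as a whole did not have that order. Of the 8 tested markers, 4 were higher and 4 lower in irradiated tumors than in Vehicle (median log2 -0.29, or -1.37 without irradiated replicate 3). Against R788 + anti-PDL1, 5 were higher and 3 lower in irradiated tumors (median 0.87, or -0.24 without that tumor). The log2 fold change of S100a8 in R788 + anti-PDL1 against Vehicle was -3.00 (SE 0.73, edgeR adjusted p = 0.11), and 2 of 14 alternative fits called it. None of the 8 tested neutrophil markers passed the test in any comparison, and their part in the receptor ratio was not tested.

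The genes whose log2 CPM most resembled that of a member over the 9 libraries were named by Pearson r, as a description of points that share library and depth. For Fcgr3 they were the macrophage marker Adgre1 (r = 0.961), Nrros (0.960) and Ms4a6b (0.955), and for Adgre1 r was 0.962 over the 8 libraries without irradiated replicate 3. Fcgr1 was most like Ifi209 (0.980), the interferon-induced guanylate-binding protein Gbp5 (0.979) and the mannose receptor Mrc1 (0.975). Fcgr2b was most like the interferon-induced GTPase gene Iigp1 (0.983), Tmem150b (0.972) and Mrc1 (0.971). For Fcgr4, Stk17b (0.940), AW112010 (0.918) and Apoe (0.917) led, but without irradiated replicate 3 these were at 0.125, 0.357 and 0.722. Fcgrt was most like Map4k1 (0.968), Catsper2 (0.960) and Klhl5 (0.960), and without that tumor these were at 0.983, 0.968 and 0.971. Among the members themselves r was 0.94 for Fcgr1 and Fcgr2b and 0.81 for Fcgr3 and Fcgr4, and without irradiated replicate 3 it was 0.80 and -0.02.

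Of the 22 genes of the activating pathway, which runs from the gamma chain through Src family kinases and Syk to adaptors and the NADPH oxidase, all were tested. In R788 + anti-PDL1 against Vehicle 21 were higher and 1 was lower, with a median log2 fold change of 0.84 against -0.02 over all genes. None passed edgeR's test (lowest adjusted p 0.23), and 2 were under 0.05 before adjustment, against 11.7% of all genes. However, 16 were higher in all 3 treated tumors than in any Vehicle tumor, against 13.6% of all genes. The R788 + anti-PDL1 tumors also had more macrophage transcripts, at 874 to 886 CPM against 403 to 816 CPM, and their part in this was not tested.

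Fcer1g, the gamma chain, was at 18.7, 9.74 and 10.7 CPM in Vehicle and 25.3, 24.5 and 21.8 CPM in R788 + anti-PDL1 (log2 fold change 0.87, SE 0.56, edgeR adjusted p = 0.626). Syk was at 19.3, 14.3 and 13 CPM in Vehicle and 30.3, 24.8 and 31.4 CPM in R788 + anti-PDL1 (0.89, SE 0.45, edgeR adjusted p = 0.51), and 2 of 15 alternative fits called it. Both genes were higher in each treated tumor than in any Vehicle tumor. The kinase Lyn (log2 fold change 0.79, SE 0.54) separated the same way. Ncf4, a subunit of the oxidase, had the highest log2 fold change at 1.73 (SE 0.55), followed by the GTPase Rac2 at 1.34 (SE 0.68), and the lowest were Ncf1 at -0.03 and Lat2 at 0.06.

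Irradiated tumors showed a wider spread of the same pathway. All 22 genes were higher than in Vehicle, with a median of 1.18 against 0.05 over all genes, and of 0.10 without irradiated replicate 3. Only 2 were higher without overlap, while 20.5% of all genes did not overlap in either direction. None passed edgeR's test (lowest adjusted p 0.247), and 6 were under 0.05 before adjustment, against 13.2% of all genes. Syk was at 15.3, 13.4 and 48.5 CPM and Fcer1g at 15, 12.6 and 61.6 CPM in these tumors, so that replicates 1 and 2 lay within the Vehicle range. Ncf4 was higher in every irradiated tumor than in Vehicle (log2 1.94, SE 0.55). Against R788 + anti-PDL1 the median was 0.31, and -0.53 without irradiated replicate 3. None of the 22 passed edgeR's test there, and 1 was under 0.05 before adjustment, against 18.4% of all genes. Ncf1 led there at 1.05 (SE 0.40), and Plcg2 was lowest at -0.23.

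Of the 11 genes on the inhibitory side, all tested, 8 were higher and 3 lower in R788 + anti-PDL1 than in Vehicle, with a median of 0.38 and none passing edgeR's test (none under 0.05 before adjustment). The phosphatase gene Inpp5d was at 6.07, 2.83 and 7.07 CPM in Vehicle, 6.53, 18.7 and 17.9 CPM in R788 + anti-PDL1 and 2.21, 10.1 and 42.0 CPM in irradiated tumors, and its groups overlapped. Ptpn6, another phosphatase, differed by log2 0.38 (SE 0.54) in R788 + anti-PDL1 and 0.68 (SE 0.54) in irradiated tumors. Csk, the kinase that restrains Src family kinases, was higher in every irradiated tumor than in Vehicle (log2 0.39, SE 0.15) and than in R788 + anti-PDL1 (log2 0.58, SE 0.15, edgeR adjusted p = 0.194). Dok3, an adaptor, was higher in every irradiated tumor than in Vehicle (log2 1.70, SE 0.50, edgeR adjusted p = 0.265). Csk and Dok3 were the 2 of 11 genes without overlap between irradiated and Vehicle tumors, against 20.5% of all genes in either direction. Csk was the 1 of 11 without overlap against R788 + anti-PDL1, where 14.2% of all genes were higher without overlap. In the comparisons with irradiated tumors the list's medians were 0.44 and 0.08, or -0.00 (5 of 11 higher) and -0.21 (3 of 11 higher) without irradiated replicate 3. None of its genes passed edgeR's test, and 2 and 1 were under 0.05 before adjustment, against 13.2% and 18.4% of all genes.

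Fcgrt needs B2m as its light chain, and the 12 genes for assembly and endosomal transport of FcRn were read with it. All 10 that were tested were lower in R788 + anti-PDL1 than in Vehicle, 7 of them without overlap against 16.5% of all genes lower without overlap, and their median was -0.38. B2m was at 374, 264 and 286 CPM in Vehicle, 248, 262 and 243 CPM in R788 + anti-PDL1 and 374, 272 and 458 CPM in irradiated tumors. It was lower in each R788 + anti-PDL1 tumor than in any tumor of either other group, with log2 differences of -0.30 (SE 0.23) against Vehicle and 0.55 (SE 0.23, edgeR adjusted p = 0.258) for irradiated tumors against R788 + anti-PDL1. Rab11fip5, a recycling endosome effector, was lowest against Vehicle at -0.73 (SE 0.30) and Tapbp, a chaperone of MHC class I, was at -0.54 (SE 0.21). In irradiated tumors against R788 + anti-PDL1, 8 of the 10 were higher with a median of 0.40, led by Rab11a at 0.79 (SE 0.21). None of the 10 passed edgeR's test in any comparison. Under 0.05 before adjustment were 3, 0 and 4 in the 3 comparisons in order, against 11.7%, 13.2% and 18.4% of all genes.

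Of 13 other Fc and immunoglobulin receptors only 5 had enough counts to be tested, and Fcamr had none in any tumor. Fcer1a, the IgE-binding chain of mast cells and basophils, was at 0.221, 0.18 and 0 CPM in Vehicle, 1.76, 1.95 and 0.943 CPM in R788 + anti-PDL1, and 0.516, 0 and 0.228 CPM in irradiated tumors. Ms4a2, its partner chain, was likewise higher in each R788 + anti-PDL1 tumor than in any other tumor. Fcer1a differed by log2 3.47 (SE 1.11) between R788 + anti-PDL1 and Vehicle and Ms4a2 by 2.35 (SE 0.90), with edgeR adjusted p of 0.241 and 0.347, and the Vehicle levels were near the limit of detection. The 8 mast cell and basophil markers had the same order, at 5.92 to 18.5 CPM summed in Vehicle, 56.1 to 89.5 CPM in R788 + anti-PDL1 and 8.77 to 19.0 CPM in irradiated tumors, and their part in the Fcer1a values was not tested.

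Transcripts for the ligand were scarce. Of 18 immunoglobulin and B lineage genes 6 were tested, Ighg3 had no counts, and Ighg1 and Ighg2c reached at most 0.0764 and 0.137 CPM, at most 3 counts. Ighg2b ranged from 0 to 0.685 CPM and Ighm from 3.04 to 16.3 CPM. None of the 6 passed edgeR's test in any comparison, and none was under 0.05 before adjustment.

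**Figure D5:**
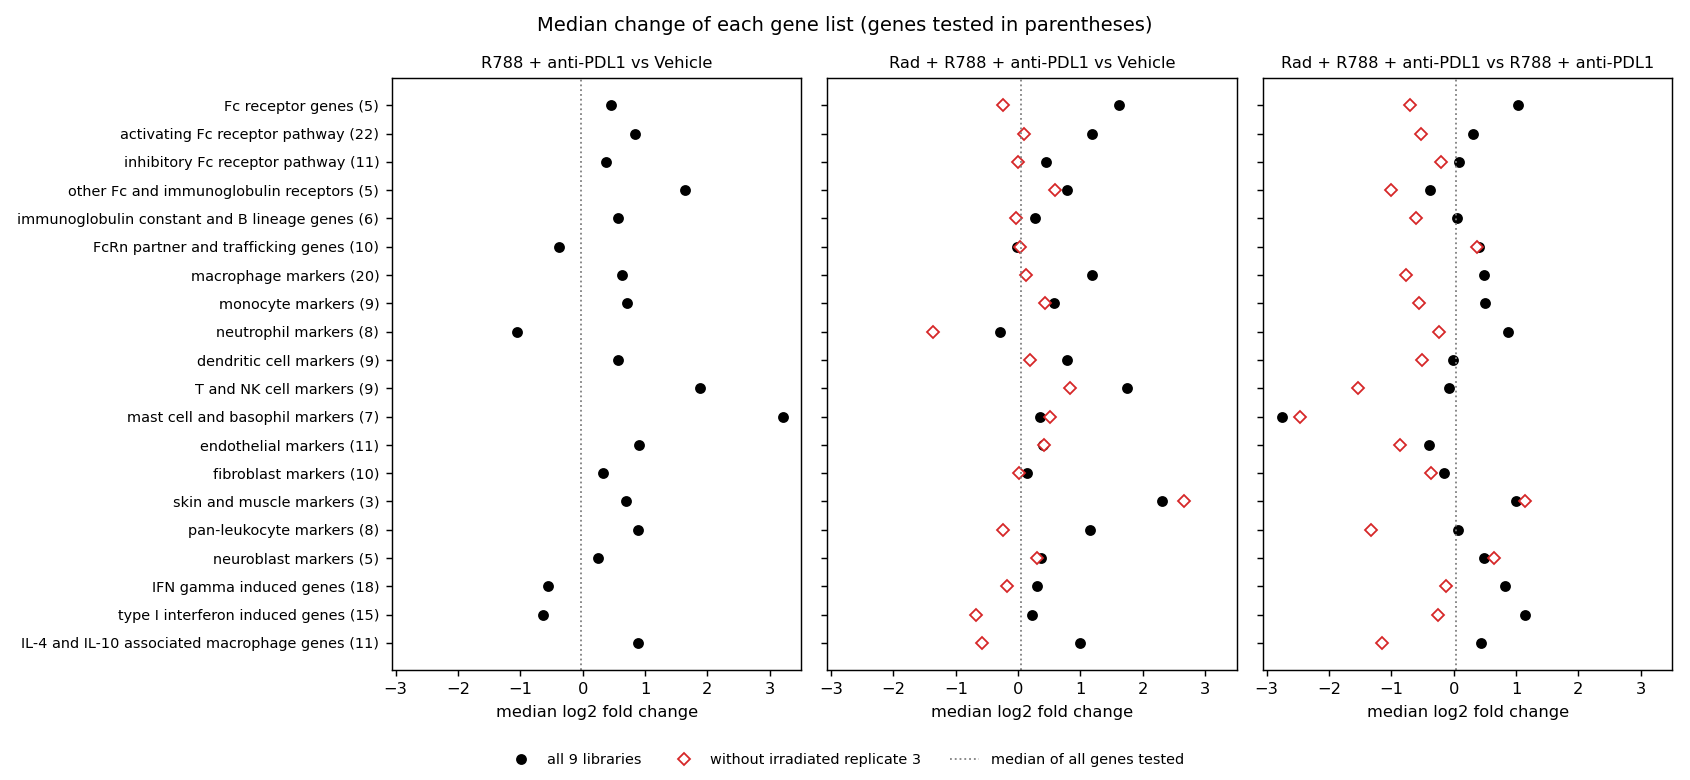
Median log2 fold change of each gene list in the 3 comparisons, with the number of genes tested in parentheses. Black points are the fit over all 9 libraries, open diamonds the fit without irradiated replicate 3, and dotted lines the median of all genes tested. The activating pathway lies at 0.84 in R788 + anti-PDL1 against Vehicle, and in irradiated tumors against Vehicle it moves from 1.18 to 0.10 when irradiated replicate 3 is left out.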

How the data were processed

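Whole-tumor RNA from 9 tumors, 3 per group by the treatment labels, was profiled by RNA-seq. Per the submitters' processing notes the authors used STAR 2.6.1d, Salmon 1.4.0, SAMtools 1.9, Picard 2.26 and MultiQC 1.11 with build mm10. The deposited table holds Salmon estimated counts per gene symbol as whole numbers, with no normalization. The labels give a paired-end run with poly(A) selection and the methods a single-read run, and strandedness is not given in the sources used here.

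Genes were filtered with filterByExpr (minimum count 10) and tested with edgeR 4.0.16 (quasi-likelihood, robust, TMM, 1 fit over all 9 libraries, no covariate, R 4.3.3), two-sided, called at a Benjamini-Hochberg adjusted p under 0.05 over 15931 genes. The 95% intervals come from that fit. Alternatives used DESeq2 1.42.0 and limma 3.58.1. The fit was tested on simulated data. Log2 CPM used a prior count of 2, alternatively 0.5. Identifiers, lengths and overlaps came from GENCODE M21, which matched 98.8% of symbols, and promoters from RefSeq. Ratios and marker-relative levels had no test.

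Members and gene lists were chosen with earlier results of these data known. Named beside the members were Fcer1g, Syk, Lyn, Inpp5d, Ptpn6 and B2m, up to 2 highest and 2 lowest genes per list and comparison, and the 3 genes most like each member. Genes named because they had no or very few counts were Th, Ly6g, Ngp, Fcamr, Ighg1, Ighg2c and Ighg3. These genes, Cd3e and Cd2 (under the filter) and the overlapping Gm38204 and Gm45669 fall outside that rule. They were named after their values were seen. Some genes that the rule names are not reported here.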

Additional observations from a re-analysis of the deposited data

How the results depend on the processing

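The number of members called was 0 in all 3 comparisons under all 15 alternatives for each, the replicate block included, in which replicate numbers also entered the fit. Between tumors with the same number, deviations from the group means had r from -0.046 to 0.23. With 3 tumors per group these values cannot decide whether the numbers pair tumors. Over all genes, 108, 7 and 1 were called in the 3 comparisons in order, against 0, 3 and 0 with the replicate block, 770, 611 and 822 by DESeq2, 4835, 1993 and 3080 by limma-voom with sample quality weights, 111, 12 and 8 by limma-voom, 199, 70 and 24 with no low-count filter and 594, 1 and 0 in fits of only the 6 libraries compared. With a library left out they ranged from 0 to 75, from 1 to 57 and from 0 to 21. In irradiated tumors against R788 + anti-PDL1, Fcgr1 turned from log2 1.06 to -0.19 by limma-voom and to -0.03 with the replicate block. Leave-one-out values ran from -1.83 to 1.59 for Fcgr1, -1.32 to 1.54 for Fcgr2b and -0.70 to 0.81 for Fcgr3 in that comparison, and from -0.94 to 2.51, -0.49 to 2.41 and -0.25 to 1.29 against Vehicle, the lowest each time without irradiated replicate 3. Fcgr4 in R788 + anti-PDL1 against Vehicle turned from -0.05 to 0.19 by limma-voom with sample quality weights and to 0.03 with upper-quartile normalization, and ran from -0.17 to 0.17 with a library left out. The cause was not tested. With the median of the macrophage markers, the relative level in irradiated tumors differed by 0.24 (Fcgr3) and 0.93 (Fcgr4) against Vehicle and by 0.46 and 1.65 against R788 + anti-PDL1. By the longest transcript Fcgr2b was at 3.88, Fcgr3 at 12 and Fcgrt at 42.4 CPM per kb in Vehicle, and Fcgr2b at 6.93 and Fcgr3 at 16.4 in R788 + anti-PDL1. With a library left out, the difference in the log2 ratio of Fcgr3 to Fcgr2b turned from -0.37 to at most 0.09 in R788 + anti-PDL1 against Vehicle, from -0.28 to at most 0.22 in irradiated tumors against Vehicle, and from 0.09 to as low as -0.32 between the treated groups. That of Fcgr1 to Fcgr2b turned from 0.03 to as low as -0.35 and from -0.25 to 0.13 in the comparisons with Vehicle, and that of Fcgr4 to Fcgr2b from 0.40 to -0.02 in irradiated tumors against Vehicle. The ratio of Fcgr4 to Fcgr3 kept its sign in each comparison with each library left out.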

Other observations

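Interferon gamma is a known inducer of Fcgr1 in macrophages, and interferon-induced genes were read from lists as well. Of 18 genes induced by interferon gamma, 11 were lower and 7 higher in R788 + anti-PDL1 than in Vehicle. The GTPase gene Igtp was the 1 that passed edgeR's test, against 0.678% of all genes. Before adjustment 6 were under 0.05, against 11.7% of all genes. Without overlap 6 were higher and 6 lower, against 13.6% and 16.5% of all genes. Igtp was at 17.9, 27.4 and 28.2 CPM in Vehicle, 8.86, 7.38 and 7.01 CPM in R788 + anti-PDL1 and 16.1, 13.8 and 20.4 CPM in irradiated tumors, and it fell by 1.66 on the log2 scale (SE 0.26, edgeR adjusted p = 0.0383) between the first groups, a call that 9 of 15 alternative fits shared. In irradiated tumors all 18 were higher than in R788 + anti-PDL1, with a median log2 fold change of 0.83 that was -0.13 without irradiated replicate 3. H2-Eb1, an MHC class II gene, was at 14.1, 11.5 and 11.9 CPM in Vehicle, 15.2, 78.8 and 38.2 CPM in R788 + anti-PDL1, and 53.7, 22.4 and 199 CPM in irradiated tumors. Both treated groups lay above Vehicle for it, with log2 differences of 1.82 (SE 0.77) and 2.88 (SE 0.80) and edgeR adjusted p of 0.396 and 0.235.

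Among 12 genes associated with IL-4 and IL-10 in macrophages, Arg1 was at 16.1, 17.0 and 16.5 CPM in Vehicle and 1.18, 1.88 and 2.42 CPM in irradiated tumors, lower without overlap (log2 -3.16, SE 1.09, edgeR adjusted p = 0.307). In R788 + anti-PDL1 it was at 19.8, 0.153 and 14.3 CPM, so that 1 tumor of that group lay below the irradiated tumors. The list as a whole ran the other way in irradiated tumors against Vehicle, with 9 of 11 tested genes higher and a median of 0.99, which was -0.58 (4 of 11 higher) without irradiated replicate 3. Of 9 tested T and NK cell markers, all were higher in both treated groups than in Vehicle, with medians of 1.88 and 1.74. Without irradiated replicate 3 the latter median was 0.83, with 8 of 9 higher. None passed edgeR's test, while 4 and 2 were under 0.05 before adjustment, against 11.7% and 13.2% of all genes. The list holds 15 markers, and several T cell markers fell under the filter. Of these, Cd3e was at 3, 3 and 5 counts in Vehicle, 4, 5 and 1 in R788 + anti-PDL1, and 2, 3 and 54 in irradiated tumors. Cd2 was at 4, 1 and 1, at 1, 36 and 9, and at 2, 1 and 56 counts in the same order. The pan-leukocyte markers had a median of 0.89 in R788 + anti-PDL1 against Vehicle, and 4 of 8 were higher without overlap, against 13.6% of all genes. In irradiated tumors against Vehicle the median was 1.15, or -0.25 (2 of 8 higher) without irradiated replicate 3. There 0 of 8 separated without overlap, against 20.5% of all genes in either direction. For irradiated tumors against R788 + anti-PDL1 the median was 0.07, or -1.33 without that tumor.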
